A study of Mus musculus with 68 samples.

Results

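Calcium enters a firing DA neuron with every spike, and its cytosolic level sets how far SK channels open between spikes. Ryanodine receptors and IP3 receptors release calcium from the endoplasmic reticulum, SERCA pumps refill that store, and plasma membrane calcium ATPases (PMCA) and sodium-calcium exchangers (NCX) carry calcium out of the cell. Pumps bind calcium tightly and move it slowly, whereas exchangers have a lower affinity and a higher capacity, so that pumps are usually described as setting the resting level and exchangers as clearing large loads.

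The 10 genes described here encode these proteins: the ryanodine receptors Ryr2 and Ryr3, the IP3 receptors Itpr1 and Itpr2, the SERCA pump Atp2a2, the PMCA pumps Atp2b1, Atp2b2 and Atp2b3, and the exchangers Slc8a1 and Slc8a2. They were picked by gene symbol out of 36172 genes in the count table, and all 10 were found once. The table came from Patch-seq, in which the contents of a neuron of the ventral tegmental area (VTA) were drawn into the pipette after recording, and it held 33 cells of 3xTg mice and 35 cells of WT mice, all 12 months old. 3xTg mice were homozygous for humanized transgenes, among them an APP with the Swedish mutation and a mutant tau. The WT controls lacked the transgenes and came from their own line of like hybrid background, so that genotype and line cannot be told apart. Males and females were pooled, and no label ties a cell to a mouse. The genotypes were for this reason compared as 1 sample each, without a test, and the SD given below is that of cells, not of animals.

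The total count per cell lay between 492505 and 1678624, with a median of 1194457 in 3xTg and 982390 in WT, and the median number of genes detected was 8511 and 7476. The DA markers Th, Slc6a3, Slc18a2 and Ddc had a count in every cell, as the authors' selection of cells on the first 3 of them requires. Of the markers by which the authors excluded other cell types, at least 1 had a count in 5 cells of each genotype. The summed level of 7 microglial markers reached 5215 CPM (counts per 1000000 counts) in the highest 3xTg cell and 2869 in the highest WT cell, and that of 7 astrocyte markers 272 and 2410. Oligodendrocyte markers (6) had counts in every cell, up to 621 CPM in 3xTg and 2540 in WT, with Mbp at 76.3 and 257 CPM over all cells, whereas Aldh1l1, Cldn5, Pecam1 and Ly6c1 were at 0 throughout. Cells are labelled by number, in blocks of 1 genotype. The first run of 3xTg numbers (24 to 55, 21 cells) follows the first of WT (1 to 22, 17 cells), and a second run of each came after them (WT 57 to 74, 15 cells, and 3xTg 76 to 92, 12 cells), with 3 more WT cells at 94 to 96. The sources used here do not say what a number stands for, and for most of the genes the genotype difference is given below also for the first runs alone and for the second runs alone.

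SERCA2 and PMCA2 were the most abundant of these transcripts in VTA DA neurons. Between genes, counts were compared only after division by transcript length, which was longest for Slc8a1 (18.46 kb), as CPM of the summed counts per kb. On this scale Atp2a2 led with 31.7 in 3xTg and 29.9 in WT, followed by Atp2b2 with 23.9 and 22.3 and by Atp2b1 with 10.3 and 10.4. Slc8a1 (3.04 and 5.69), Atp2b3 (2.77 and 3.24), Ryr3 (2.83 and 2.56) and Itpr1 (1.99 and 3.99) formed a middle group. Ryr2 (0.152 and 0.196), Slc8a2 (0.0725 and 0.0950) and Itpr2 (0.245 and 0.0151) were far below them. The first 4 places of the order were the same in both genotypes. Neighbours in the order were not separated in all cells. Atp2a2 was above Atp2b2 in 21 of 33 3xTg cells and 18 of 35 WT cells, and Slc8a1 was below Atp2b1 in 22 and 18. In the middle group the order of the sums was not that of most cells, since Ryr3 stood above Atp2b3 by its 3xTg sum but exceeded it in only 13 of 33 cells, and Itpr1 stood above Atp2b3 by its WT sum but exceeded it in only 10 of 35.

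**Figure D1:**
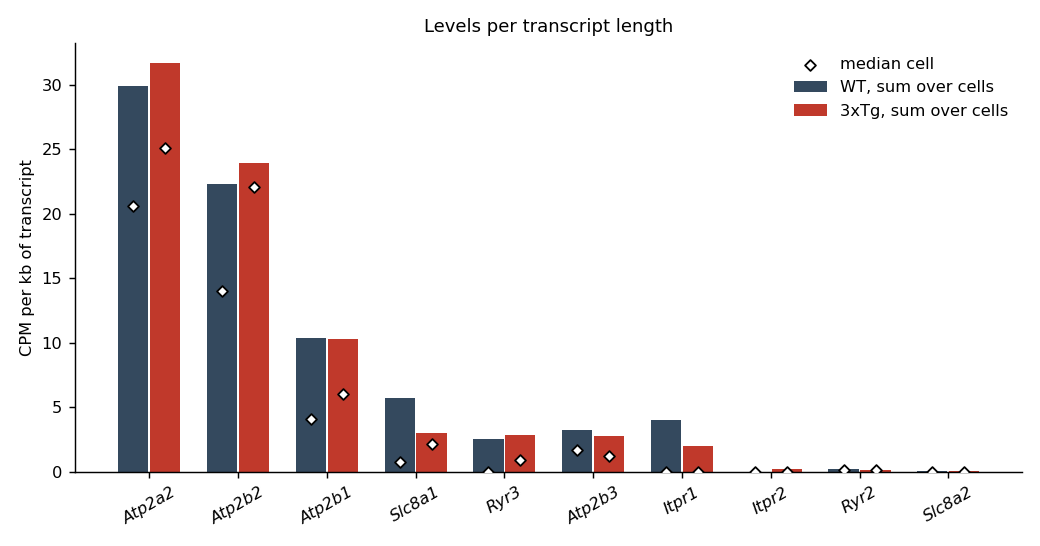
Level of each gene per kb of its longest RefSeq-linked transcript (y axis, CPM per kb) from counts summed over the cells of a genotype (bars) and in the median cell (diamonds). Atp2a2 and Atp2b2 stand above 20 in both genotypes, and for Slc8a1 the WT bar of 5.69 stands far above its median cell of 0.748.

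Detection followed 2 forms. Ryr3, Itpr1, Atp2a2, Atp2b1 and Atp2b2 were mostly either at 0 or counted many times, so that of the cells with a count, 85.3%, 77.4%, 91.4%, 90.2% and 93.4%, respectively, had at least 10. Ryr2 and Atp2b3 were instead counted at low values in most cells, with at least 10 counts in 4 of 49 and 25 of 66 detected cells. Slc8a1 held both forms, with 21 cells at 1 to less than 10 counts and 43 cells at 10 or more. A cell held between 4 and 10 of the 10 genes in 3xTg and between 2 and 9 in WT, with a median of 6 in both. All 33 3xTg and 35 WT cells had a count of at least 1 PMCA pump, 31 and 33 of an exchanger, and 25 and 24 of Atp2a2, Atp2b2 and Slc8a1 together. No receptor of the store was detected in 2 3xTg cells and 4 WT cells.

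**Figure D2:**
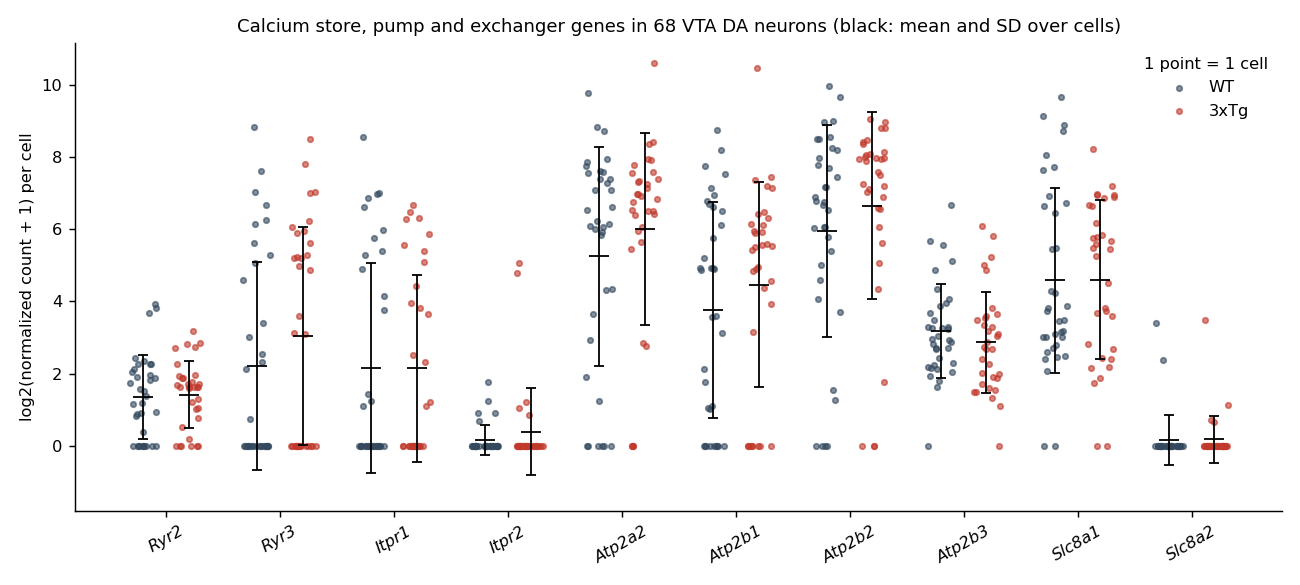
Values per cell, as log2(normalized count + 1) with DESeq2 size factors (y axis), of the 10 genes in WT (dark, 35 cells) and 3xTg (red, 33 cells), with the mean and SD over cells in black. The genotypes overlap for each gene, and Ryr3, Itpr1, Itpr2 and Slc8a2 have many cells at 0.

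The genotype difference was measured in 2 ways. The first is the log2 ratio, 3xTg over WT, of the CPM of counts summed over cells, with an exact 95% interval that covers counting error only. It weights cells by their counts and can be led by 1 cell. For the second, log2(normalized count + 1) was averaged over the cells of each genotype, with the same weight for each cell, and the WT average was subtracted from the 3xTg average. By this measure the median expressed gene was 0.47 higher in 3xTg, and differences are therefore also given relative to it. A gene was called where a measure passed 1.5-fold. By summed counts, Itpr2 was called higher, and Itpr1 and Slc8a1 lower, in 3xTg, which is 3 of 10 genes past 1.5-fold in either direction. Without the cells that held a marker of another cell type, the log2 ratios of these genes were 4.28, −1.28 and −1.17. Among the 3988 expressed genes (those whose normalized count reached 1 in 80% or more of the 3xTg or of the WT cells), 22.9% were called in either direction. Since only Atp2a2, Atp2b2, Atp2b3 and Slc8a1 are among these, the 14034 genes counted in at least 5 cells, a broader set with lower counts, were also used, and there the share was 47.1%. The members' share lay between them. The median log2 ratio of the 10 genes was −0.12, against −0.03 for all expressed genes and −0.06 for the broader set. By the mean over cells, relative to the median expressed gene, only Atp2b3 was called, and it was lower in 3xTg, where 23.9% of expressed genes and 21.6% of the broader set were called lower. Which genes were called depended on the cells and the fit. The shares just given hold for all cells as first measured, and none is given for the settings that follow. Without the cells that held a marker of another cell type, Ryr3 (0.77) and Atp2a2 (0.62) were called higher and Itpr1 (−0.72), Atp2b3 (−0.98) and Slc8a1 (−0.75) lower. With the cells thinned to 1 total, which left out 2 3xTg and 5 WT cells below that total, the one call was Slc8a1 (−0.77). With genes detected per cell added to the fit it was Itpr1 (−0.79). The median of the 10 genes by this measure was 0.15, or −0.32 relative to the median expressed gene, and the latter was 0.09 in cells with a count alone. The reference itself depended on the filter, since 1076 of the expressed genes reached it in 3xTg alone and 164 in WT alone. Over the 2748 genes that reached it in both, the 4 expressed members among them, the median was 0.22 higher in 3xTg. Relative to this value Ryr3 was called higher (0.62), Atp2b3 (−0.52) was not called, and the median of the 10 genes was −0.07.

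Ryr3 was the main ryanodine receptor transcript. It held 94.5% of the summed counts of Ryr2 and Ryr3 in 3xTg (exact interval 93.3% to 95.5%) and 92.3% in WT (90.8% to 93.7%), and 94.9% and 92.9% per length. Ryr3 (Gene ID 20192, mm10 chr2:112631382-113030331, minus strand) ranged from 0 to 309.5 counts in 3xTg, with a median of 11.98. In WT it ranged from 0 to 444.9, with a median of 0. It was detected in 18 of 33 and 16 of 35 cells, and the genotypes overlapped, with the highest cell in WT. The sums were 1608 and 1349 counts, or 43.8 and 39.65 CPM, a log2 ratio of 0.14 (0.04 to 0.25). A single neuron, WT cell 73, held 32.99% of the WT sum, and without it the log2 ratio was 0.68, past 1.5-fold, whereas without 3xTg cell 39 it was −0.13. The mean over cells was 3.05 ± 3.02 (SD, n = 33) in 3xTg and 2.21 ± 2.87 (SD, n = 35) in WT on the log2 scale, a difference of 0.84 that was 0.37 above the median expressed gene. Between the first runs the log2 ratio of sums was 1.28, from 944 against 303 counts, and between the second runs −0.07, from 664 against 674. WT cell 73 belongs to the second run, and without it that ratio was 1.38. By the mean over cells Ryr3 was higher in 3xTg in both, by 0.46 and 1.09 relative to the median gene. Cells with Ryr3 had more genes detected, with a median of 9003 against 6731 in cells without it.

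Ryr2, the cardiac type of ryanodine receptor (Gene ID 20191, chr13:11553103-12106945, minus strand), was seen in more cells than Ryr3 but at far lower counts. It ranged from 0 to 10 counts in 3xTg and from 0 to 20.5 in WT, with a median of 2 in both. Its 25 detected 3xTg cells and 24 detected WT cells overlapped, and a count of at least 10 was reached in 1 and 3 cells. The sums of 94 and 112 counts gave a log2 ratio of −0.36 with an interval of −0.77 to 0.05, so that a difference in summed counts was not detectable at this depth. The means over cells were 1.42 ± 0.93 and 1.35 ± 1.16 (SD, n = 33 and 35). Ryr1, the skeletal muscle type, had 6 counts in 3xTg and 3 in WT in all.

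Itpr1, the main IP3 receptor of neurons (Gene ID 16438, chr6:108213096-108551116, plus strand), was detected in 16 of 33 3xTg cells and 15 of 35 WT cells. Its counts ranged from 0 to 161.5 in 3xTg and from 0 to 358.7 in WT, with a median of 0 in both. The highest count was that of WT cell 94. The sums were 720 and 1340 counts, 19.6 and 39.4 CPM, so that Itpr1 was 2.01-fold lower in 3xTg by this measure (log2 ratio −1.01, −1.14 to −0.87). WT cell 94 held 26.8% of the WT sum, and without it the log2 ratio was −0.61. The mean over cells was the same in both genotypes, 2.14 ± 2.58 in 3xTg and 2.14 ± 2.91 in WT (SD, n = 33 and 35), so that the difference was 0.48 below that of the median expressed gene. Hence the lower sum in 3xTg came with a similar number of detected cells, in which the median count was 37.5 against 59.15. Within the runs the log2 ratios were −0.52 and −0.62, and both depended on single cells: without WT cell 14 the first was 0.34, and without WT cell 64 the second was −0.31.

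Itpr2, an IP3 receptor that is prominent in astrocytes, was at or near 0 in all but a pair of these neurons. The gene (Gene ID 16439, chr6:146108299-146502223, minus strand) had a count in 5 cells of each genotype. Of these 10 cells, 3xTg cell 30 had 54 counts and 3xTg cell 79 had 46.98, and the other 8 had 1 or 2. The sums were 105 in 3xTg (exact interval 85.9 to 127) and 6 in WT (2.20 to 13.1), a 16.2-fold ratio (log2 4.02, 2.85 to 5.50) that rests on those 2 cells. Without 3xTg cell 30 the log2 ratio was 3.00. In the first runs alone, 2 counts in 3xTg against 5 in WT were left without that cell, a log2 ratio of −1.64 (−5.03 to 0.97). Astrocyte markers had no count in 3xTg cells 30 and 79. WT cell 5, with 1999 astrocyte marker counts, had 2 counts of Itpr2, and 3xTg cell 42, with 52, had 1. The source of the Itpr2 counts was not tested. Of the summed counts of Itpr1 and Itpr2, Itpr1 held 87.3% in 3xTg and 99.6% in WT. Among cells with at least 20 counts of Itpr1 and Itpr2, Itpr1 held over 90% in 9 of 11 3xTg cells and in all 11 WT cells. Itpr3 was at 1 count in 1 WT cell and at 99.86 in 3xTg cell 31, and at 0 in all others. With Itpr3 included, the share of Itpr1 was 77.8% in 3xTg and 99.5% in WT.

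Atp2a2 encodes SERCA2, the pump that loads the endoplasmic reticulum in most cells outside fast skeletal muscle (Gene ID 11938, chr5:122453513-122502225, minus strand). Counts ranged from 0 to 876.2 in 3xTg, with a median of 128.6, and in WT from 0 to 768.7, with a median of 97.06. It was detected in 29 cells of each genotype, which overlapped, with the highest cell in 3xTg. The sums of 5214 and 4562 counts, 142 and 134 CPM, gave a log2 ratio of 0.08 (0.03 to 0.14), and the means over cells were 5.998 ± 2.66 and 5.25 ± 3.03 (SD, n = 33 and 35), a difference 0.28 above that of the median expressed gene. Both measures were thus within 1.5-fold. Within runs the log2 ratio was −0.28 in the first and 0.49 in the second, so that the direction differed between the runs. The mean over cells gave −0.19 and 1.03 relative to the median gene, the latter past 1.5-fold. The number of genes detected in a cell had almost no relation to Atp2a2, with a Spearman rho of −0.01 in 3xTg and 0.02 in WT. Of the other SERCA genes, Atp2a3 was detected in 4 3xTg cells and 1 WT cell and Atp2a1 in 2 and 3.

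Atp2b2 was the leading PMCA transcript. It encodes PMCA2, a fast pump of neurons and hair cells. The gene (Gene ID 11941, chr6:113745668-113891376, minus strand) was detected in 30 of 33 and 31 of 35 cells, at 0 to 502 counts in 3xTg with a median of 243 and at 0 to 667.7 in WT with a median of 107.5. The highest cells were WT, whereas the middle of the distribution was higher in 3xTg. The sums were 7785 and 6725 counts, 212 and 198 CPM, with a log2 ratio of 0.10 (0.05 to 0.15), and the means over cells were 6.64 ± 2.59 and 5.94 ± 2.93 (SD, n = 33 and 35), 0.23 above the median expressed gene. In the second runs all 12 3xTg cells had Atp2b2, at 56 to 493 counts, against 14 of 15 WT cells at 0 to 296.7, and the log2 ratio was 0.65, past 1.5-fold. In the first runs it was −0.05.

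Atp2b1, which encodes the widely expressed PMCA1 (Gene ID 67972, chr10:98915152-99026143, plus strand), was detected in 25 of 33 and 26 of 35 cells. Counts ranged from 0 to 917.8 in 3xTg, with a median of 52.98, and in WT from 0 to 468, with a median of 32. All 25 detected 3xTg cells had at least 10 counts, as had 21 of the 26 WT cells. The sums were almost equal, 2693 and 2520 counts or 73.4 and 74.1 CPM, with a log2 ratio of −0.01 (−0.09 to 0.06). This balance depended on the cells included, since 3xTg cell 24 alone held 34.1% of the 3xTg sum. Without it the log2 ratio was −0.57, and without WT cell 72, with 18.6% of the WT sum, it was 0.23. Dividing each cell by its size factor before summing gave 0.57. The runs went opposite ways. In the first runs Atp2b1 was at 99.0 CPM in 3xTg and 51.6 in WT, and in the second at 36.4 and 88.8, log2 ratios of 0.94 and −1.28, both past 1.5-fold. Without 3xTg cell 24, which is in the first run, the first was 0.21. Without WT cell 72 the second was −0.76. By the mean over cells the difference relative to the median gene was 0.98 and −0.62. 3xTg cell 24 was also the cell with the fewest genes detected of its genotype, 3695, and had no count of Atp2b2.

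Atp2b3 was the member found in most cells. It encodes PMCA3, which is largely restricted to neurons, and lies on the X chromosome (Gene ID 320707, chrX:73503086-73571005, plus strand). It was detected in 32 of 33 3xTg cells, at 0 to 95.94 counts with a median of 5.278, and in 34 of 35 WT cells, at 0 to 92 counts with a median of 8. The ranges were alike, and at least 10 counts were reached in 10 3xTg and 15 WT cells. The mean over cells was 2.87 ± 1.40 in 3xTg and 3.18 ± 1.30 in WT (SD, n = 33 and 35), so that WT was 0.31 higher, and the difference was −0.78 relative to the median expressed gene. It was no longer past 1.5-fold in thinned cells (−0.32), with genes detected per cell added to the fit (−0.47), in cells with a count alone (−0.49), with a pseudocount of 10 (−0.40) and relative to the genes that passed the filter in both genotypes (−0.52). The sums of 456 and 494 counts gave a log2 ratio of −0.23 (−0.41 to −0.04), which was −0.52 without 3xTg cell 53 and 0.02 without WT cell 60. These values hide a contrast between runs. In the first runs 3xTg cells averaged 3.43 and WT cells 3.10, and in the second 3xTg cells averaged 1.90 and WT cells 3.37. The 3xTg runs thus differed from each other by 1.53 on the log2 scale, whereas the WT runs differed by 0.28. By summed counts the log2 ratio was 0.68 in the first and −1.57 in the second runs. Without 3xTg cell 53 the first was 0.30, within 1.5-fold. With any 1 cell left out, the second lay between −3.13 (without 3xTg cell 92) and −1.19 (without WT cell 60). Whether the lower 3xTg level of the second run belongs to the genotype or to what the label numbers mark cannot be told apart.

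As shares of their joint counts, Atp2b2, Atp2b1 and Atp2b3 held 71.2%, 24.6% and 4.17% in 3xTg and 69.1%, 25.9% and 5.07% in WT. Per length these were 64.7%, 27.8% and 7.50% in 3xTg and 62.04%, 28.9% and 9.02% in WT. The order of the 3 pumps was thus the same in both genotypes, and the exact intervals of the Atp2b2 share, 70.3% to 72.1% in 3xTg and 68.1% to 69.97% in WT, lay close together. Single cells were more varied. Among 29 3xTg and 31 WT cells with at least 20 counts of the 3 genes, Atp2b2 held over 90% in 6 cells of each genotype and under 10% in 1 cell of each. Averaged over these cells, the share of Atp2b3 was 4.46% in 3xTg and 13.5% in WT, the latter over 1.5-fold above its share of the sums. The fourth pump gene of the family, Atp2b4, was detected in 10 3xTg and 13 WT cells, at 595 and 804 counts in all, more than Atp2b3. With Atp2b4 included, Atp2b2 held 67.5% of the counts in 3xTg and 63.8% in WT, and per length Atp2b4 came last, with 1.95 and 2.85 CPM per kb.

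Slc8a1, which encodes NCX1, the exchanger best known from the heart (Gene ID 20541, chr17:81373105-81738377, minus strand), had the largest genotype difference by sums among the members that passed the expression filter. It was detected in 31 of 33 3xTg cells, at 0 to 300 counts with a median of 46.09, and in 33 of 35 WT cells, at 0 to 778 counts with a median of 13.5. The typical cell was therefore higher in 3xTg, whereas the highest cells were WT. The sums were 2063 and 3577 counts, 56.2 and 105 CPM, 1.87-fold lower in 3xTg (log2 ratio −0.90, −0.98 to −0.83). The means over cells were 4.60 ± 2.20 and 4.58 ± 2.56 (SD, n = 33 and 35), 0.02 apart, which is −0.45 relative to the median expressed gene. The lower 3xTg sum thus came from the upper end of the WT cells. The 3 highest WT cells held 51.5% of the WT sum, and WT cell 94 alone held 21.8%. Without WT cell 94 the log2 ratio was −0.60, still past 1.5-fold. Between the first runs the log2 ratio was −0.96, from 1134 against 1712 counts, and between the second it was 0.21, from 929 against 781. Without WT cell 14 the first was −0.42, within 1.5-fold, and without WT cell 57 the second was 1.41. The runs also differed in direction by the mean over cells, with −0.98 and 0.69 relative to the median gene.

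Slc8a2, the gene of NCX2, an exchanger of the brain (Gene ID 110891, chr7:16130300-16160511, plus strand), was detected in 4 3xTg cells and 2 WT cells. The highest counts were 10 in 3xTg cell 48 and 11 in WT cell 8. With sums of 14 and 17 counts, the log2 ratio of −0.39 had an interval of −1.52 to 0.72, and no difference was detectable at this depth. It was −2.14 without 3xTg cell 48 and 1.07 without WT cell 8. Slc8a1 held 99.3% of the counts of the pair in 3xTg and 99.5% in WT. The third NCX gene, Slc8a3, which is not among the 10 and was added after its values had been seen, had 792 counts in 23 3xTg cells and 209 in 17 WT cells, or 4.38 and 1.247 CPM per kb. A single neuron, 3xTg cell 43, held 56.1% of its 3xTg sum. Over all 3 NCX genes, Slc8a1 held 71.9% of the counts in 3xTg and 94.1% in WT, and per length 40.6% and 80.9%. The shares per length depend on the transcripts taken, of 18.46 kb for Slc8a1 and 4.927 kb for Slc8a3. The 3xTg share per length rested on cell 43, without which it was 59.5%.

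**Figure D3:**
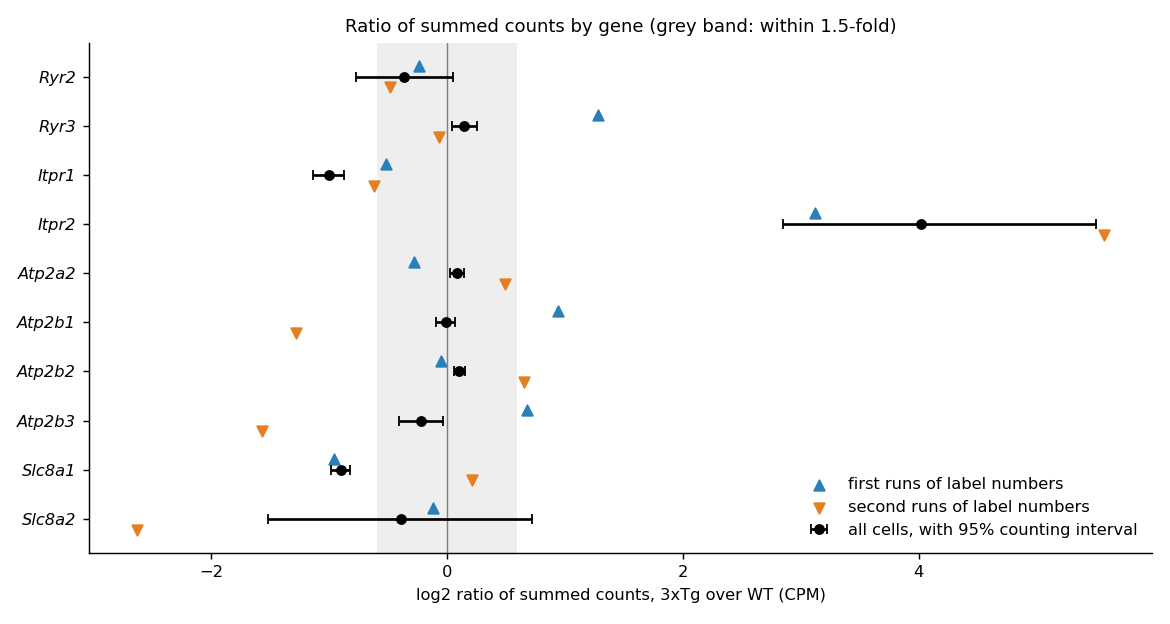
Log2 ratio, 3xTg over WT, of summed counts (x axis) for each gene over all cells (black, with the exact 95% counting interval) and between the first (blue) and second (orange) runs of label numbers. Ryr3, Atp2a2, Atp2b1, Atp2b2, Atp2b3 and Slc8a1 lie on opposite sides of 0 in the runs, of which Atp2b1 and Atp2b3 pass 1.5-fold in both, and the Itpr2 and Slc8a2 values of the second runs rest on a single count in 1 genotype.

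Across the 10 genes, the first runs gave 4 genes past 1.5-fold higher (Ryr3, Itpr2, Atp2b1 and Atp2b3) and 1 lower (Slc8a1), where 20.7% and 11.6% of expressed genes were called and 59.5% of the broader set in either direction. The second runs gave 2 higher (Itpr2 and Atp2b2) and 4 lower (Itpr1, Atp2b1, Atp2b3 and Slc8a2), where the shares were 13.7% and 30.1% of expressed genes and 59.6% of the broader set in either direction. Only Itpr2 was called in the same direction in both, from 1 high cell in each 3xTg run. Most of these calls rested on single cells. Leaving out 1 cell ended those of Atp2b1, Atp2b3 and Slc8a1 in the first runs and of Itpr1 and Atp2b2 in the second, those of Itpr2 and Slc8a2 had 5 counts or fewer in 1 genotype, and those of Ryr3 in the first and of Atp2b1 and Atp2b3 in the second runs held with any 1 cell left out. The runs also differed in the number of genes detected, with medians of 7648 in 3xTg and 5233 in WT for the first and 9308 and 8441 for the second. With this number as a term in a fit over all cells, the difference of means relative to the median gene went from −0.78 to −0.47 for Atp2b3, from 0.37 to 0.06 for Ryr3, from −0.45 to −0.16 for Slc8a1 and from −0.48 to −0.79 for Itpr1. The third run, WT cells 94 to 96, held the WT cell with the highest Itpr1 and Slc8a1 counts.

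**Figure D4:**
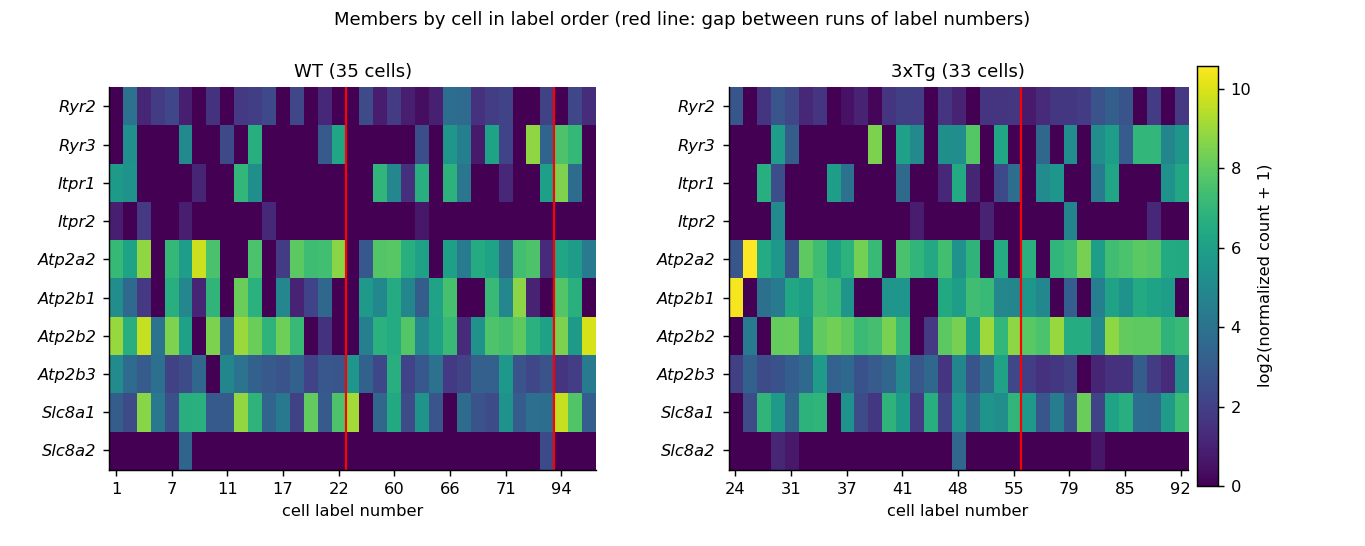
Log2(normalized count + 1) of each gene (rows) in every cell, with WT left and 3xTg right, in order of the label number (x axis). Red lines mark gaps between runs, Atp2b3 is darker in the second 3xTg run than in the first (mean 1.90 against 3.43), and 3xTg cell 30 is the one cell with all 10 genes.

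Across cells the members varied mostly on their own. Spearman correlations of log2 values were computed within each genotype for the 45 pairs, as a description, since cells share unnamed mice and depth. The highest mean over genotypes was that of Atp2b1 with Atp2b2, 0.41, from 0.31 in 33 3xTg and 0.50 in 35 WT cells, and it was 0.42 with the number of genes detected held constant. All other pairs lay between −0.28 (Atp2a2 with Slc8a2) and 0.21 (Ryr3 with Slc8a2). Ryr3 and Itpr1, the main receptors of the store, had a mean of 0.21, which was 0.06 with the number of genes detected held constant, and were found together in 11 3xTg and 9 WT cells. Some pairs differed between the genotypes, such as Ryr2 with Slc8a1 at 0.07 in 3xTg and −0.43 in WT.

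For the 4 members expressed in at least 80% of cells, the most similar patterns across cells among expressed genes were sought by the mean of the 2 correlations. The genes named are the highest of 3988, so their values are raised by the choice, and no background was computed. The genotypes could differ, as for Srp9 (0.36 in 3xTg and 0.75 in WT), Hpcal4 (0.67 and 0.38) and Atrn (0.66 and 0.23). Closest to Atp2a2 were Srp9 (0.55), a part of the signal recognition particle that directs proteins to the endoplasmic reticulum, Bnip3 (0.53), a mitochondrial protein, and Hpcal4 (0.52), a neuronal calcium sensor. Closest to Atp2b2 were Atrn (0.45), Serinc3 (0.44) and Tubb3 (0.42), the last a tubulin of neurons. Slc8a1 was closest to Tex264 (0.44), a receptor for autophagy of the endoplasmic reticulum, Scp2 (0.43), a lipid carrier, and Serpine2 (0.42), a protease inhibitor. Atp2b3 was closest to Hoxb1 (0.39), Zfand2a (0.37) and Acsm2 (0.37). Hoxb1, a hindbrain patterning gene, and Acsm2, an enzyme of kidney and liver, are not known as genes of DA neurons. Hoxb1 was, as Atp2b3, counted at low values in most cells, with a median of 4 counts and at least 10 in 11 of 58 detected cells, whereas Acsm2 had at least 10 in 53 of 68. Some markers of other cell types were also counted in most cells, namely Gad2 (median 22.8 counts, in 68 cells), Mobp (8, in 66 cells) and Cx3cr1 (9.62, in 59 cells), and of these Mobp had at least 10 counts in 24 cells and Gad2 in 53. The correlation of these 3 markers with Atp2b3 lay between −0.07 and 0.16. What part of the low counts of Atp2b3 and Ryr2 came from the neuron itself was not tested.

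Around the 10 genes, 75 further genes of calcium handling were listed, of which 31 were expressed. By summed counts 4 of these 31 were higher and 3 lower by more than 1.5-fold, a share close to the 22.9% of all expressed genes, with a median log2 ratio of 0.18. The filter bears on these counts, since 6 of the 31 (Letm1, Calb2, Ahcyl1, Atp2c1, Tmem38a and Ncs1) reached it in 3xTg alone and 1 (Hpca) in WT alone. Of the 24 that reached it in both genotypes, 2 were higher and 3 lower, where 19.5% of such genes were called, with a median of 0.13. Higher in 3xTg were Letm1, a mitochondrial cation exchanger (log2 ratio 1.04, detected in 28 and 17 cells), the cytosolic buffers Calb2 (calretinin, 0.89) and Calb1 (calbindin, 0.63), and Vdac1, a pore of the outer mitochondrial membrane (0.67). Ahcyl1, a partner of the IP3 receptor, followed with 0.54. Lower were Itpripl1, which resembles an IP3 receptor interacting protein (−1.28), Homer2, a scaffold of receptors and stores (−0.86), and Sdf4, a calcium-binding protein of the Golgi lumen (−0.59). The mitochondrial exchanger Slc24a6, now named Slc8b1, and the endoplasmic reticulum leak channel Tmco1 followed with −0.54 each. Between the first and between the second runs the log2 ratios were 1.37 and 0.73 for Letm1, 0.94 and 1.33 for Calb2, 0.40 and 0.98 for Calb1 and 0.55 and 0.73 for Vdac1. They were −1.49 and −1.13 for Itpripl1, −1.49 and −0.38 for Homer2 and −0.90 and −0.02 for Sdf4, whereas Ahcyl1 (1.16 and −0.09) and Slc24a6 (0.20 and −1.11) changed direction. Of all genes that reached the filter in both genotypes, 40.5% had a ratio above 0. On the list these were 4 of 4 of mitochondrial calcium uptake and release, 6 of 7 lumenal calcium-binding proteins and 2 of 6 receptor partners. They were also 2 of 2 cytosolic buffers and sensors (Calb1 and Vsnl1), 2 of 2 pump subunits, 1 of 1 of store-operated entry and 0 of 2 exchangers. In the first runs 3 mitochondrial, 4 lumenal, 1 partner and 1 buffer or sensor gene were above 0, and in the second 3, 6, 3 and 2. Pump subunits were 2 and 1, store-operated entry 1 and 1, and exchangers 1 and 0. The median expressed gene was at 0.12 in the first and −0.11 in the second runs, and the share of all genes above 0 within runs is not given. By the mean over cells relative to the median expressed gene, 12 of the 31 were called higher and 4 lower, where 25.9% and 23.9% of expressed genes were. Of the 24 these were 9 and 4, also relative to the median of all expressed genes. For the genes that reached the filter in both genotypes no share by this measure is given, so the 9 and 4 cannot be weighed. Slc24a4, Casq2 and the 2 genes listed under the older symbols Ccdc109a (Mcu) and 1500032L24Rik (Smdt1) are listed at 0 in all cells.

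**Figure D5:**
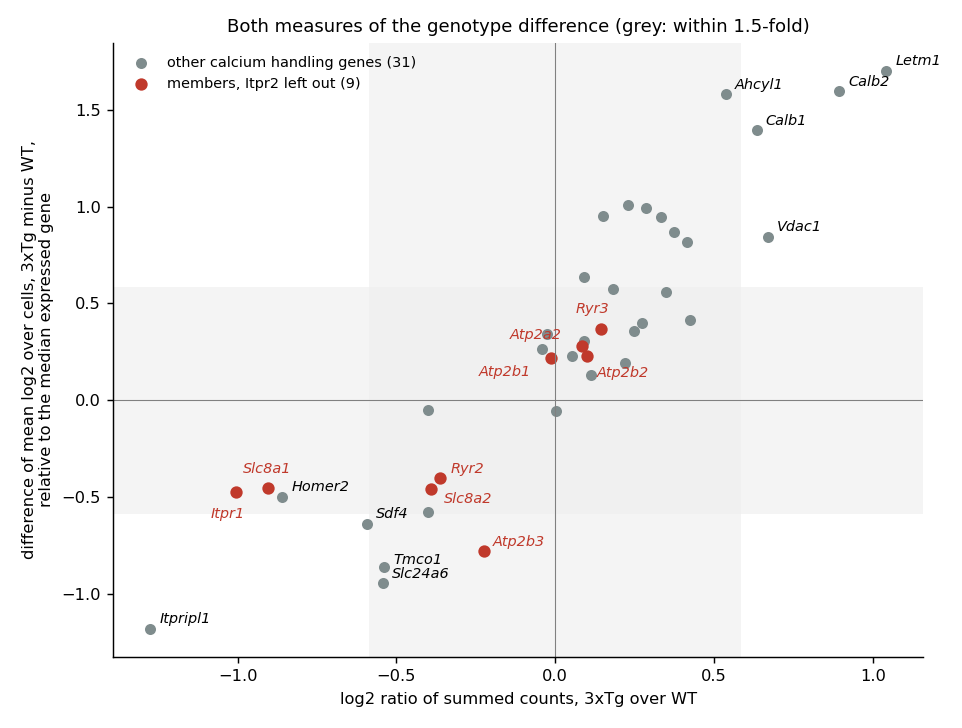
The summed-count ratio (x axis, log2) against the difference of means over cells relative to the median expressed gene (y axis, log2) for the members (red, Itpr2 left out for its ratio of 4.02) and the 31 expressed genes of the calcium handling list (grey). Grey bands mark 1.5-fold; Itpr1 and Slc8a1 pass it on the x axis only and Atp2b3 on the y axis only, whereas Letm1, Calb1, Calb2 and Vdac1 (higher) and Itpripl1 and Sdf4 (lower) pass it on both.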

How the data were processed

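Single VTA neurons were recorded, and their RNA was made into directional libraries with 28 cycles of PCR and sequenced. In Strand NGS (v4.0) the authors aligned trimmed reads to RefSeq transcripts of mm10, discarded duplicates and deposited estimated counts per gene, of which 55.3% of those above 0 were not whole (tolerance 0.001). The authors also deposited normalized log2 values (DESeq2 algorithm, shifted per gene), used here only as an alternative. Whether strand was used in counting is not given in the sources used here, and exons of Itpr1, Atp2a2 and Slc8a1 overlap genes on the opposite strand in GENCODE M21.

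Counts were rounded for sums and for thinning. Size factors followed DESeq2's median of ratios over 787 genes, with a pseudocount of 1, and TMM factors came from edgeR 4.0.16 (R 4.3.3). Detected means a count of at least 1. Exact 95% intervals (Poisson for a sum, Clopper-Pearson for a ratio or share) cover counting error only, since reads without molecular identifiers were amplified. Lengths are those of the longest GENCODE M21 transcript linked to RefSeq. Coordinates are the authors', in mm10. The calculations were tested on simulated data.

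Groups came from the genotype in the sample titles. No test was made, because cells are not replicates and mice are not named. Doublets were not called and no cells were clustered. The members, the gene lists and the comparisons were chosen with earlier results of these data known. Named genes were the members, from the calcium handling list the top 5 and bottom 5 expressed genes by summed ratio and those at 0, the 3 genes most like each member expressed in 80% of cells, and the cell type markers. The remaining family genes Ryr1, Itpr3, Atp2a1, Atp2a3, Atp2b4 and Slc8a3, and the genes with low counts in most cells, were named after their values had been seen. Alternatives were other scalings, thinning, pseudocounts, folds, count minimums, leaving out cells, and label runs. The broader gene set, the values without WT cell 94 the leaving out of single cells within runs and the genes that passed the expression filter in both genotypes were chosen after seeing the data. Python 3.11.15, numpy 2.4.6, scipy 1.17.1 and pandas 2.3.3 were used.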

Additional observations from a re-analysis of the deposited data

How the results depend on the processing

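The number of members past 1.5-fold by summed counts was 3. It came to 5 in the first runs of label numbers, 6 in the second runs and 5 at the lower of the other fold limits tried. With size factors, TMM factors, thinned cells, without cells holding a marker of another cell type, or at the higher fold limit it was between 2 and 4, and leaving out each cell in turn gave 3 to 4. Slc8a1 turned from −0.90 to 0.21 in the second runs, and to 1.41 there without WT cell 57, and Itpr1 from −1.01 to 0.34 in the first runs without WT cell 14. Itpr2, from 4.02, was at −1.64 in the first runs without 3xTg cell 30, on 2 against 5 counts. No other called value reversed in the alternatives run, and the cause was not tested. As a mean over cells of the share within a cell, in place of the share of the sums, Ryr3 in WT was 90.5%, Itpr1 in 3xTg 82.98%, Atp2b2 73.97% in 3xTg and 64.5% in WT, Atp2b3 in WT 13.5%, and Slc8a1 in WT 97.8%. The median of the members lay between −0.27 and 0.03 by summed counts and between 0.05 and 0.36 by the mean over cells in all alternatives run, and relative to the median expressed gene the latter lay between −0.35 and 0.09, above 0 in cells with a count alone only. By the mean over cells, 1 member was past 1.5-fold, 0 with a pseudocount of 10, 2 with a pseudocount of 0.1 and in the first runs, 4 in cells with a count alone, 5 without cells holding another marker and 7 in the second runs. Shares of all genes by this measure are given for the first of these counts only (25.9% higher and 23.9% lower among expressed genes). The other counts therefore cannot be weighed against all genes. Leaving out each cell in turn moved the medians from −0.27 to 0.01 and from 0.06 to 0.21. Of the values of single members, 192 under the alternatives, single cells left out within runs included, moved by less than their counting interval or, for means, less than 1.5-fold, and 82 moved by more without reversing a called direction. No paired analysis was possible because the genotypes share no label numbers and no cell is tied to a mouse. Depth limits Ryr2, Itpr2 and Slc8a2, whose sums were at most 112 counts in a genotype.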
